A study of Mus musculus with 2 samples.

Results

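The AP-1 transcription factors examined here are 10 mouse genes, Fos, Fosb, Fosl1, Fosl2, Jun, Junb, Jund, Jdp2, Batf and Maff, and they were chosen by name from the Fos, Jun and related basic leucine zipper (bZIP) factors. All 10 were represented on the array, by 15 of the 34945 probe sets that the platform annotation ties to a single gene symbol, among 18193 such genes. Each probe set combines the readings of several short probes into 1 signal for a transcript. The samples were mouse embryonic stem (ES) cells with a constitutive knockout of Eed (Eed KO) and the control ES cells set beside them, with 1 Affymetrix MOE430 2.0 array for each. No promoter-driven Cre, clone number, parent line, passage or feeder layer is given in the labels, so none of these can be stated as shared or different between the lines. Eed is a core subunit of PRC2, the Polycomb complex that places repressive methyl marks on histone H3. The comparison asks which transcripts differ between cells with and without Eed.

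AP-1 is a dimer of bZIP proteins. Jun proteins pair with each other or with Fos proteins and bind a short palindromic DNA element, whereas Fos proteins need a Jun partner. Several of the genes, Fos and Jun above all, are immediate early genes that serum, growth factors and stress switch on within minutes through MAP kinases. Jdp2 and Batf lack the long activation domains of Fos and often act as inhibitors of Jun dimers, and Maff is a small Maf protein with no activation domain of its own. AP-1 activity is usually associated with fibroblasts and other differentiated cells rather than with the undifferentiated ES cell state.

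All 9 members with a usable signal read higher on the Eed KO array than on the control array, and 3 of them, Jdp2, Jun and Maff, did so by at least 2-fold. Over all measured genes, 58.9% had a ratio above 1 and 10.8% were at least 2-fold higher. Jdp2 had by far the largest ratio of the 9, at 10.1-fold, followed by Jun at 2.38-fold and Maff at 2.30-fold. The other 6 were between 1.24-fold and 1.71-fold, and none of the 9 was lower. At 1.5-fold, Fos, Fosl1 and Fosl2 would join them, making 6 of 9, where 23.3% of all measured genes passed that limit. Fosb was under the signal floor, defined below, on both arrays.

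A gene was taken as measured when its signal was above a floor of 61.3 on at least 1 array, the floor being the 40th percentile of all signals that are not from the manufacturer's control probe sets. Signals under the floor were raised to it before ratios were taken, and a call required a 2-fold difference between the floored values. A gene with several probe sets was represented by the one with the highest mean log2 signal. Of all 13794 measured genes, 10.8% were called higher in Eed KO cells and 3.27% lower, and 58.9% had a ratio above 1. The share of higher calls was larger at low signal: below a mean signal of 10 times the floor, where 8 of the 9 measured members lie, 14.8% were called higher and 68.3% had a ratio above 1. At 1.5-fold the share of higher genes there was 30.8%, against 23.3% of all measured genes. The 9 measured members were above the floor on both arrays, so the floor did not fix the direction of any of them. Their median log2 ratio was 0.75, against 0.12 over all measured genes. With 1 array in each group no replicate error can be given and no test between the groups can be made. Every difference is one between these 2 arrays.

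**Figure D1:**
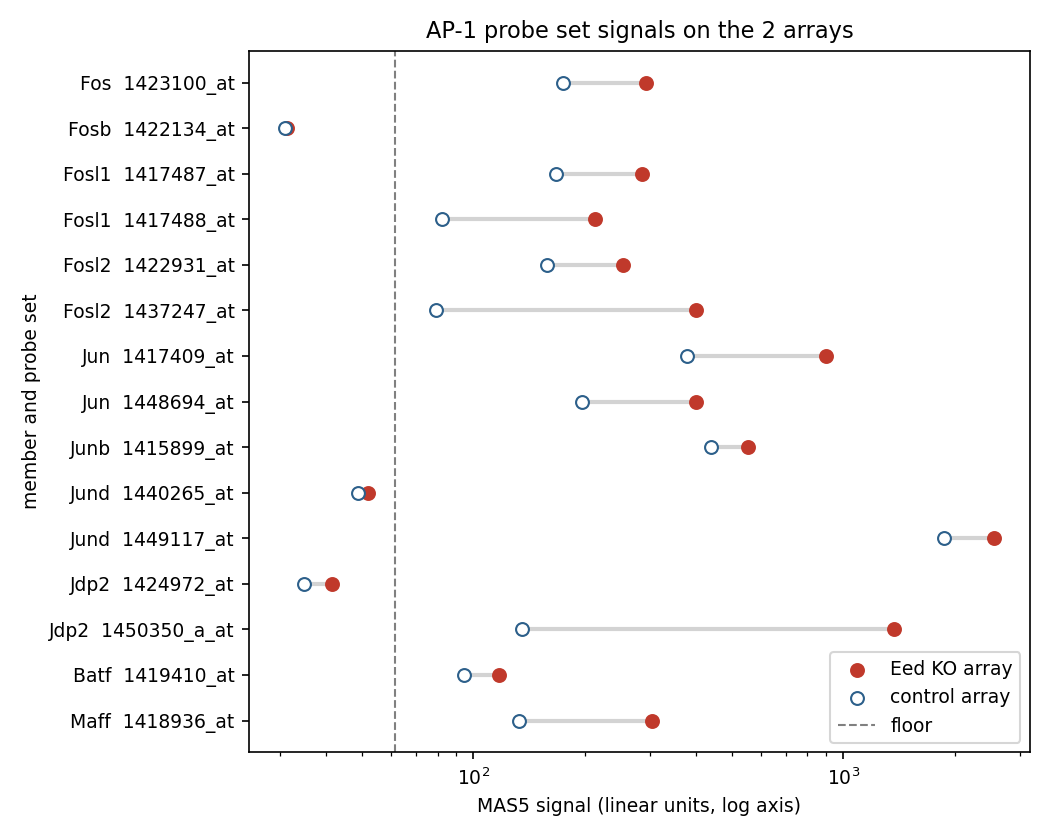
Signal of each of the 15 probe sets of the AP-1 members (log axis, MAS5 units) on the Eed KO array (filled red) and the control array (open blue), joined by a grey line, with the floor of 61.3 dashed. The filled point lies to the right of the open one in all 15 rows, and the 3 rows left of the dashed line are under the floor on both arrays.

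The size of a ratio was set against the only repeated measurement there is, the disagreement between probe sets of the same gene. The 2 brightest measured probe sets of a gene were paired, and pairs were grouped by the signal of the dimmer one. The SD of a log2 ratio estimated this way was 0.42 at signals between 128 and 256, 0.33 between 256 and 512, 0.25 between 512 and 1024 and 0.18 above 2048. As it averages over a dimmer and a brighter probe set, it can be too small for a ratio at the dimmer signal. This spread reflects technique and isoforms, and says nothing of the variation between cultures. Jdp2, Jun, Maff and Jund had log2 ratios above 2 such SDs at their own signal, which is 4 of 9, where 18.9% of all measured genes did so. Probe sets of a gene share the scale of their array, so this spread does not cover the scaling. Jund, at 0.45 as deposited, was at 0.15 with equal array medians and at 0.26 when the poly-A spikes set the scale. Fos, Fosl1, Fosl2, Junb and Batf were within that range with the probe set that represented each gene. The other probe sets of Fosl1 and Fosl2, at 1.38 and 2.34, were above it.

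The general measures of the arrays were as follows. The median signal over all 45101 probe sets was 108.1 in Eed KO cells and 87.4 in control cells. The 18 probe sets for the hybridization spikes had a median ratio of 1.05, and the 24 for the poly-A spikes 1.15. The 3' to 5' signal ratio of Gapdh was 0.789 in Eed KO cells and 0.791 in control cells. The Eed transcript read 11456 in Eed KO cells and 10101 in control cells with its brighter probe set, and the labels do not say which part of the gene was disrupted, so this signal does not check the label. Of 12 ES cell markers, all were measured, 1 was called higher (Klf4, 2.59-fold) and none lower. The next largest log2 ratios were those of Nanog (0.85), Zfp42 (0.78) and Fbxo15 (0.75), and Pou5f1, which encodes Oct4, read 11352 in Eed KO cells and 12948 in control cells. Only 8 of the 12 had a ratio above 1. Utf1 and Sox2, named after their values were seen, had log2 ratios of -0.71 and -0.47, and another Utf1 probe set one of -1.57. With equal array medians 1 ES cell marker was called lower.

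RefSeq promoter windows, which span 250 bases before to 50 bases after a transcript start, were used for 9 of the 10 members (all but Fosl1), 13 windows in all (build GRCm38.p6). With the ratios already known, they were searched on both strands for 4 motifs: TGANTCA, the classical AP-1 element; TGACNTCA, a longer element that AP-1, ATF and CREB dimers bind; TGATGNAA, the core of the amino acid response element bound by C/EBP and ATF dimers; and the CArG box bound by serum response factor. At least 1 of the 4 motifs was in 4 of the 13 member windows (30.8%) and in 20.3% of all windows. The 4 windows belong to Jun and Maff, which held TGACNTCA, and to Jdp2, which held TGATGNAA, the 3 members called higher. Maff and Jdp2 have 3 windows each and so more room for a match: of all genes with 3 windows 40.4% held one, and of genes with 1 window 20.9%. The sequences shown are the windows with a match, all from the 3 members with the largest ratios. The other windows of Maff and Jdp2 held none of the 4 motifs and are not shown. Each line gives the 250 bases before the start, 5' to 3' on the gene's strand, with the match in capitals.
Jun, minus strand, chr4:95052223-95052472: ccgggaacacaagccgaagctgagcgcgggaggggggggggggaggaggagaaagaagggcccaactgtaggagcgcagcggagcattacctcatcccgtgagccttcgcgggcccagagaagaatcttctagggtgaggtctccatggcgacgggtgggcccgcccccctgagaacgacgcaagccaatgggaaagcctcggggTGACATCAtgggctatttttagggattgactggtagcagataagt
Maff, plus strand, the second of its 3 windows, chr15:79347270-79347519: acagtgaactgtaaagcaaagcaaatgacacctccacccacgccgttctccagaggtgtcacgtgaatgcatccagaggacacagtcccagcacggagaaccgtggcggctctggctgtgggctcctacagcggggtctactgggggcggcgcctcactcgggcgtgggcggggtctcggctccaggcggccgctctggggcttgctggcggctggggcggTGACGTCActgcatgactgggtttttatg
Maff, plus strand, the third window, chr15:79348152-79348401: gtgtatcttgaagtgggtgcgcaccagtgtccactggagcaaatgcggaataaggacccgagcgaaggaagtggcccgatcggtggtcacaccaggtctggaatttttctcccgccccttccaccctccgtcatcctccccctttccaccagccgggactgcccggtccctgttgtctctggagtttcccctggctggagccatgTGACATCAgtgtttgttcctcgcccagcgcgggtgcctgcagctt
Jdp2, plus strand, the second of its 3 windows, chr12:85599166-85599415: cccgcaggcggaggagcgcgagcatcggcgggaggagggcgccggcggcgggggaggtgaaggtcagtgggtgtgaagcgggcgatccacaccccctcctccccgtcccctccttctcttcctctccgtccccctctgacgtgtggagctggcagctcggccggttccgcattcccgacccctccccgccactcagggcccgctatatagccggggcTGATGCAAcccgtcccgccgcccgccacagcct

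In Jun and in the third Maff window the same 8 letters, TGACATCA, began 45 bases before the start, and in the second Maff window TGACGTCA began 29 bases before it. The Jdp2 match, TGATGCAA, began 33 bases before the start. Over 32851 promoter windows of the same length, 8.83% held TGACNTCA and 3.97% held TGATGNAA. TGANTCA was in 7.81% and the CArG box in 1.63% of windows, and neither was in a member window. A match is a stretch of letters and says nothing about which factor sat there in these cells, and the absence of one concerns this window only. The member windows were also richer in CpG than most: the median ratio of observed to expected CpG was 0.67 over the 13 member windows and 0.38 over all windows. Jdp2, at 1.02 and 0.85 in its first and second windows, and Fosl2, at 1.03, had the densest, and Jund the sparsest at 0.18.

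Among the Fos proteins, the obligate partners of Jun, the representing probe sets of the 3 measured genes had nearly the same log2 ratio. It was between 0.69 and 0.78, under the 2-fold limit. The other probe sets of Fosl1 and Fosl2 were above that limit, at 1.38 and 2.34. Fos, the serum-inducible founding member, read 293.4 on the Eed KO array and 174.3 on the control array, a 1.68-fold ratio (log2 0.75). Its signal was higher in Eed KO cells, and 17.0% of all measured genes had a ratio at least as large. Fosb, whose product is closely related to Fos, read 31.4 in Eed KO cells and 30.9 in control cells. Both Fosb values were under the floor, so no ratio was formed.

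Fosl1 encodes Fra-1, a Fos protein linked to cell migration and mesenchymal states. Its brighter probe set, 1417487_at, read 286.3 in Eed KO cells and 167.1 in control cells, 1.71-fold, the highest ratio among the members just under the limit. The dimmer one, 1417488_at, read 213.8 in Eed KO cells and 82.2 in control cells, a 2.60-fold ratio. Both Fosl1 probe sets were higher in Eed KO cells and they fell on different sides of the 2-fold limit.

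Fosl2 encodes Fra-2. Its representing probe set, 1422931_at, read 254.5 in Eed KO cells and 157.9 in control cells, or 1.61-fold. The other, 1437247_at, read 401.0 in Eed KO cells and 79.4 in control cells, or 5.05-fold. The difference between the log2 ratios of the 2 Fosl2 probe sets was 1.65, and only 1.73% of the 3578 genes with exactly 2 measured probe sets disagreed by as much, against 25.2% for the Fosl1 difference of 0.60. As the mean over probe sets, Fosl2 had a log2 ratio of 1.51 and Fosl1 one of 1.08, and both then passed 2-fold. The files do not say which transcript each probe set detects, so the size of the Fosl2 difference was not settled by these arrays, while its direction was the same with both.

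With the representing probe sets, the Jun proteins differed more among themselves than the Fos proteins, with log2 ratios of 0.33 to 1.25. This order depends on the probe sets chosen, as the other ones of Fosl1 and Fosl2 were at 1.38 and 2.34. Jun, the strongest activator of the family, read 899.1 in Eed KO cells and 377.7 in control cells with probe set 1417409_at, a 2.38-fold ratio. Its second probe set, 1448694_at, read 400.1 in Eed KO cells and 196.2 in control cells, 2.04-fold. Jun was thus the one member with 2 measured probe sets that were both at least 2-fold higher, as held for 3.95% of genes with several measured probe sets. With equal array medians, its log2 ratio was 0.94, just under the limit. The second Jun probe set, at log2 1.03, was only just above it as deposited. Scaling on the hybridization spikes lowers every log2 ratio by 0.08, on the poly-A spikes by 0.20 and to equal medians by 0.31. Each of these shifts brings that probe set under 2-fold.

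Junb, which can counteract Jun at growth-related promoters, read 553.9 in Eed KO cells and 440.1 in control cells, 1.26-fold. Jund, the member that is typically expressed steadily and is not induced as an immediate early gene, read 2561 in Eed KO cells and 1870 in control cells, 1.37-fold. A second Jund probe set stayed below the floor, at 51.9 in Eed KO cells and 48.9 in control cells. Of all measured genes, 36.4% had a ratio at least as large as that of Junb and 29.6% one at least as large as that of Jund, whereas for Jun the share was 6.58%.

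The remaining members are smaller bZIP proteins. Jdp2 encodes Jun dimerization protein, a repressor of AP-1 targets that also binds histones. It read 1369 in Eed KO cells and 135.2 in control cells with probe set 1450350_a_at, a 10.1-fold ratio (log2 3.34), the 17th largest among 13794 measured genes. The other Jdp2 probe set, 1424972_at, read 41.6 in Eed KO cells and 34.9 in control cells. Since both of these values are below the floor, the Jdp2 ratio rests on 1 probe set, and it was 1.80 on the log2 scale when both were averaged.

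Maff, a small Maf protein that pairs with CNC factors such as Nfe2l2, read 304.2 in Eed KO cells and 132.5 in control cells, 2.30-fold (log2 1.20). It was under 2-fold in 5 of 10 other processing settings, down to 0.86 with a floor at the 60th percentile. Batf, a partner of Jun best known from lymphocytes, read 117.4 in Eed KO cells and 94.6 in control cells, 1.24-fold. Batf was the dimmest measured member, and its log2 ratio came down to 0.00 with equal array medians.

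**Figure D2:**
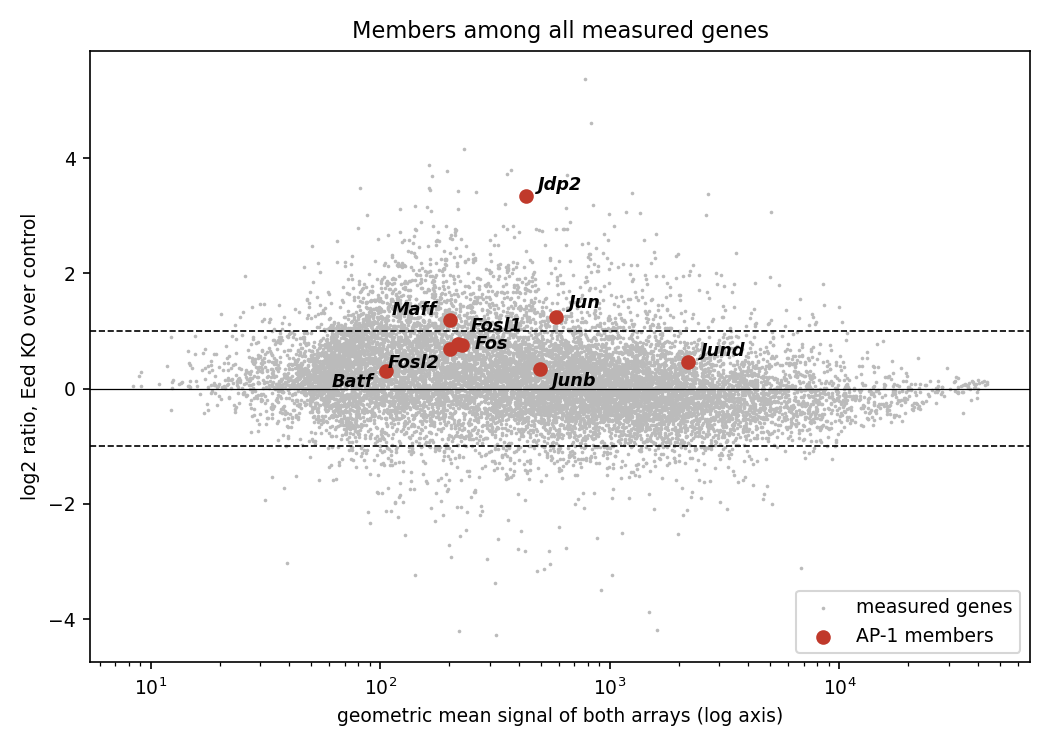
Log2 ratio of Eed KO over control against the geometric mean signal of both arrays (log axis) for the 13794 measured genes (grey) and the 9 measured AP-1 members (red, named), with dashed lines at 2-fold. Jdp2 stands at 3.34, Jun and Maff are just above the upper line, and the other 6 lie between 0.31 and 0.78.

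The background of higher ratios depended on how the arrays were scaled. Higher genes made up 76.7% of all calls as deposited, 64.6% after quantile normalization, 66.2% after removal of the lowess trend, 57.6% when the poly-A spikes set the scale and 45.9% with equal array medians. Over all measured genes the median log2 ratio moved to -0.16 in the last of these, and the median of the members to 0.44. Relative to all measured genes the members' median was 0.63 higher as deposited and 0.50 to 0.62 higher under the 5 other scalings. All 9 measured members kept a ratio above 1 under each of those 5 scalings, where as few as 39.5% of all measured genes did. Batf and Junb, at 0.00 and 0.03 with equal array medians, had almost no difference left there.

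**Figure D3:**
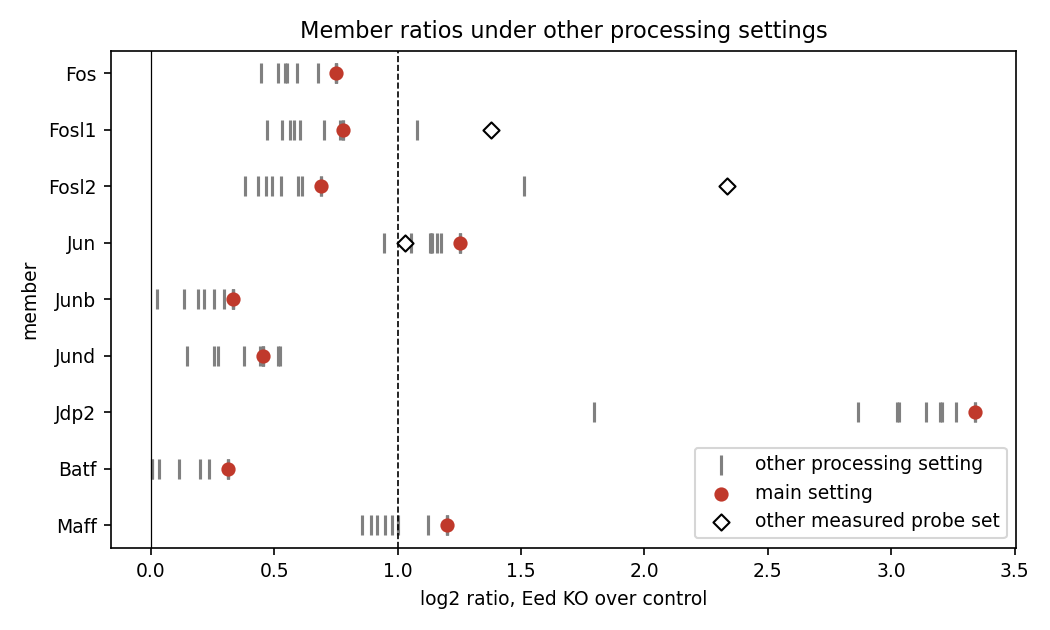
Log2 ratio of Eed KO over control for the 9 measured members in the main setting (red), under the other processing settings (grey ticks, 10 for each member and 9 for Batf) and for a gene's other measured probe set (open diamond), with the 2-fold limit dashed. Every grey tick lies to the right of 0, Jdp2 stays between 1.80 and 3.34, and the Fosl2 diamond at 2.34 lies far from its red point at 0.69.

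The bZIP proteins that can pair with AP-1 members were listed separately. The counts of this and the following lists stand beside 10.8% of all measured genes called higher and 3.27% called lower. Of 14 measured partners 5 were called higher (35.7%) and none lower, and their median log2 ratio was 0.53. With equal array medians 3 were called higher. Atf3, a stress-inducible repressor that pairs with Jun, read 423.9 in Eed KO cells and 71.7 in control cells, 5.91-fold. Ddit3, which encodes the stress protein CHOP, was 5.25-fold higher, at 985.8 in Eed KO cells and 187.7 in control cells. Atf5 was 3.97-fold higher and Atf4, the activator of the integrated stress response, 2.44-fold, at 11907 in Eed KO cells and 4879 in control cells. The fifth called higher was Nfe2l1, a CNC factor that pairs with small Maf proteins, at 2382 in Eed KO cells and 1101 in control cells (log2 1.11). The other CNC and small Maf genes measured were within 2-fold, with log2 ratios of -0.10 for Nfe2l2, 0.52 for Bach1, 0.39 for Bach2, 0.07 for Mafg and 0.20 for Mafk. Another Bach1 probe set had a log2 ratio of 1.41, and those of Bach2 reached 1.37. These 6 genes were named for their link to Maff, after their values were seen.

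Of 20 measured MAP kinase pathway genes none was called higher and 1 lower, with a median log2 ratio of 0.14, next to the 0.12 of all measured genes. The lower one was Mapk12, at 197.8 in Eed KO cells and 472.7 in control cells, whose other measured probe set had a log2 ratio of -0.24. Map3k1, an activator of the JNK branch, had a log2 ratio of 0.92, Map2k3 one of 0.66 and Map3k5 one of 0.54, all within 2-fold. Other probe sets of several of these genes went further. The JNK gene Mapk8 was at -0.47, with 4 other probe sets from -0.74 to 1.47, and the p38 gene Mapk14 at -0.01, with 5 others from -0.26 to 2.45. Mapk8ip2, a scaffold of the JNK branch, was at 0.29 with another probe set at 2.02, and a further Map3k5 probe set was at 1.01. Mapk8, Mapk14 and Mapk8ip2 were named after their values were seen. Of 10 measured SRF, TCF and CREB factors, 1 was called higher, Mef2a, at 788.1 in Eed KO cells and 360.5 in control cells, and it was within 2-fold in 3 of the 5 other scalings. Srf itself had a log2 ratio of 0.15, Crem one of 0.76, Elk4 one of 0.63 and Mrtfa one of 0.49.

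Proteins that degrade or assist AP-1 formed another list. Of its 9 measured genes, none was called in either direction, and the median log2 ratio was -0.13. Ncoa1, a coactivator, had the largest at 0.92, followed by Irf8, a Batf partner in immune cells, at 0.74. Det1, part of a ubiquitin ligase that targets Jun in human cells, had one of 0.26, and the corepressor subunit gene Hdac3 one of -0.24.

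Other immediate early genes did not go one way. Over all measured genes 10.8% were called higher and 3.27% lower, and 58.9% had a ratio above 1. Of 22 measured immediate early genes, 3 were called higher (13.6%) and 2 lower (9.09%), and 12 had a ratio above 1. The higher ones were the secreted matrix proteins Ccn2, at 15919 in Eed KO cells and 4521 in control cells (3.52-fold), and Ccn1 (3.44-fold), together with Ier5 (2.63-fold). The lower ones were the ERK phosphatase gene Dusp6, at 1154 in Eed KO cells and 2537 in control cells, and Ier2, at 2160 in Eed KO cells and 4441 in control cells. Egr1, which is often induced together with Fos, had a log2 ratio of -0.29, and Dusp1 one of -0.78; these 2, and Ier2, were named after their values were seen. With equal array medians 4 genes of this list were called lower, and after quantile normalization or removal of the lowess trend 1.

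Genes described as AP-1 targets had the highest median of the lists. Of 21 measured, 14 were called higher (66.7%, against 10.8% of all measured genes) and none lower, with a median log2 ratio of 1.82. The matrix metalloproteinase genes Mmp3, Mmp13 and Mmp10 were 13.1-fold, 10.4-fold and 8.79-fold higher. Mmp13, a collagenase with an AP-1 element in its promoter, read 8668 in Eed KO cells and 830.5 in control cells. The cytokine gene Il6 read 1654 in Eed KO cells and 241.4 in control cells, 6.85-fold. Among the 7 within 2-fold was Ccnd1, the cyclin D1 gene, with a log2 ratio of -0.69, and it was named after its values were seen. Between 12 and 16 genes of this list were called higher under the other settings. These targets were listed with earlier results of these arrays known, and several of them are also typical products of fibroblasts.

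**Figure D4:**
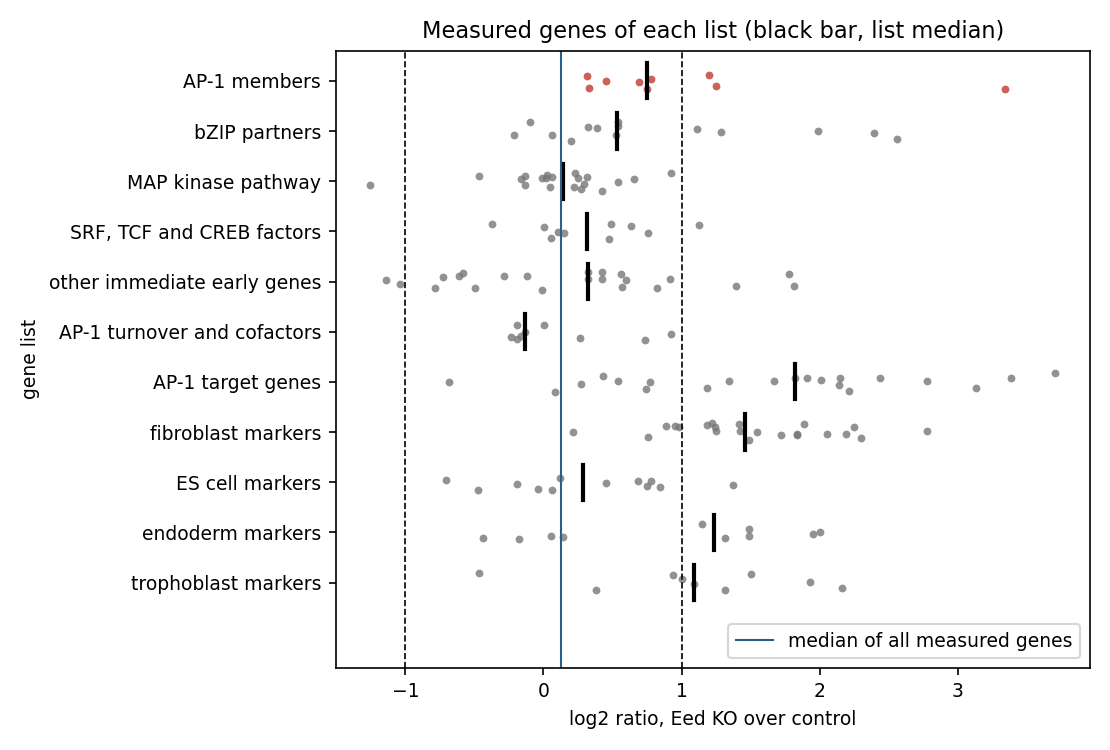
Log2 ratio of Eed KO over control for the measured genes of each list (points, AP-1 members in red), the list medians (black bars), the 2-fold limits (dashed) and the median of all measured genes (blue line). The AP-1 target genes have a median of 1.82 and the fibroblast markers 1.46, while the MAP kinase pathway sits at 0.14.

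Markers of other cells were higher on the same array. The counts below stand beside the 10.8% of all measured genes called higher. Of 22 measured fibroblast markers 17 were called higher and none lower, with a median log2 ratio of 1.46, and the summed signal of the list was 57453 in Eed KO cells and 27039 in control cells. All 22 were above the floor on both arrays. The largest were Prrx1, a mesenchymal homeobox gene (6.84-fold), the receptor gene Pdgfrb (4.92-fold), the proteoglycan gene Dcn (4.76-fold) and Twist2 (4.56-fold). The Pdgfrb signal in control cells was 63.6, close to the floor, and another Pdgfrb probe set had a log2 ratio of 0.86. Of 10 measured endoderm markers 6 were called higher, led by Sox17 (4.02-fold), Sox7 (3.87-fold), Pdgfra (2.80-fold) and Gata6 (2.80-fold), while Dab2 and Lamb1, named after their values were seen, had log2 ratios of -0.44 and -0.18. The second Sox7 probe set had one of 0.05, and a floor at the 60th percentile left 3 endoderm markers called higher. Their summed signal was 8088 in Eed KO cells and 5471 in control cells. Of 9 measured trophoblast markers 6 were called higher, led by Hand1 (4.48-fold), Esx1 (3.80-fold), Plac1 (2.84-fold) and Eomes (2.49-fold). Tfap2c and Krt7 were named after their values were seen. Tfap2c had a log2 ratio of -0.47, and its other measured probe sets were at -0.39 and -0.25. Krt7, which was called higher, was at the 2-fold limit. With equal array medians 4 trophoblast markers were called higher, and with a floor at the 25th percentile 8. The summed signal of the trophoblast list was 9737 in Eed KO cells and 5145 in control cells. In bulk RNA, more cells of a type and more RNA per cell cannot be told apart. The part that these cells have in the AP-1 ratios was not tested.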

How the data were processed

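Total RNA of Eed KO and control ES cells was labelled as biotin cRNA and hybridized to 1 array each. The authors deposited 1 linear-scale intensity per probe set and array, computed with MAS5 per the submitters' processing notes, which give no version. The arrays had been scaled before deposit, as the mean without the lowest and highest 2% of probe sets was 500.0 on each. No detection call or standard error was used here, and the number of arrays limits the precision.

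Groups were taken from the sample titles. Gene names came from the platform annotation, and 932 probe sets that name several genes were left out. RefSeq tables of GRCm38.p6 gave gene order and promoter sequences. The calculations used Python 3.11.15, pandas 2.3.3 and statsmodels 0.14.6 and were tested on simulated data. The members, gene lists and size rule were chosen with earlier results of these data known. Of each context and marker list, the 4 measured genes with the largest ratio in size were named, and other genes only as stated; Srf and Pou5f1 were added for their role. Of 185 listed genes, 10 are not analysed here. Alternatives were 5 other scalings, 2 other floors, a pseudocount, other ways to combine probe sets, and calls at 1.5-fold and 3-fold.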

Additional observations from a re-analysis of the deposited data

How the results depend on the processing

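All 9 measured members had a ratio above 1 in each of the 10 other processing settings in which they were measured. Other call sizes leave every ratio as it was, and the lower floor also left those of the 9 unchanged. Batf was not measured with the higher floor, at the 60th percentile, and Fosb was measured, at a ratio above 1, only with the lower one, at the 25th. The count of AP-1 members called higher was 3 as reported. It was 1 with equal array medians, 5 as the mean over probe sets, 6 with calls at 1.5-fold and 1 with calls at 3-fold, and 2 or 3 in the other settings. The count of members called lower was 0 in every setting. Over all genes, the 1483 higher calls became 873 with equal array medians, 2244 with the lower floor and 806 with the higher one, and 3210 and 487 with calls at 1.5-fold and 3-fold. The 451 lower calls became 1029 with the same median, 766 with scaling on the poly-A spikes, 684 with the lower floor, and 1413 and 102 with calls at 1.5-fold and 3-fold. Other call sizes and floors change these counts by construction. So do equal array medians and the spike scalings, which divide all Eed KO signals by 1 factor. The mean over probe sets added Fosl1 and Fosl2, whose other probe sets had log2 ratios of 1.38 and 2.34. Which scaling is closest to the RNA amounts was not tested. The members' median log2 ratio, 0.75 as reported, was between 0.44 with equal array medians and 1.08 when probe sets were averaged. Of the 6 context lists 4 or 5 had a median above that of all genes. No paired analysis was possible because each group has 1 array. Low signals, close to the floor for Batf and Fosb, limit what can be said of those genes.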

Other observations

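Fos, Jdp2 and Batf are neighbours on chromosome 12, with no other protein-coding gene annotated between them and 3 non-coding genes or pseudogenes that had no probe set used here. Their ratios were 1.68-fold, 10.1-fold and 1.24-fold, so the gene in the middle had the largest. The next protein-coding gene beyond Batf, Flvcr2, a membrane transporter of the heme exporter family, read 239.2 in Eed KO cells and 73.4 in control cells, 3.26-fold. Erg28, a gene of sterol synthesis that follows it, had a log2 ratio of -0.21. On the other side of Fos, Tmed10, a protein of vesicle transport, read 1499 in Eed KO cells and 910.9 in control cells, 1.65-fold, and the kinase gene Nek9 read 1820 in Eed KO cells and 909.7 in control cells, at the 2-fold limit.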
